A study of Mus musculus with 8 samples.

Results

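Rab GTPases, the small switch proteins that give each membrane compartment of a cell its identity, were followed in Ly6Chi monocytes, the class of blood monocyte that moves into inflamed tissue. The members were all genes of the deposited count table whose symbol begins with Rab and a digit, 62 of 15336 genes, with no use of their values. They are 49 Rab GTPase genes, 9 genes of proteins named after the Rab they work with (Rab11fip1 to Rab11fip5, Rab3gap1, Rab3gap2, Rab3ip and Rab3il1), and 4 antisense transcripts or pseudogenes (Rab10os, Rab26os, Rab11b-ps2 and Rab7-ps1).

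RNA with polyA tails was sequenced from monocytes sorted out of mouse livers 24 h after acetaminophen, given at 300 mg/kg into the peritoneum after a fast of 12 h. The 4 deficient mice (replicates 5, 6, 12 and 13) were LysMDCommd10: besides the floxed Commd10 alleles they carried LysM-Cre, in which the recombinase sits at Lyz2, a gene active in most myeloid cells and not in this monocyte class alone. The 4 control mice (replicates 2, 3, 10 and 11) were Commd10fl/fl littermates without the Cre. All were male, 8 weeks old and on a C57BL/6 background, and all received acetaminophen. No group carried the Cre with intact Commd10, so loss of COMMD10, the Cre and its insertion at Lyz2 cannot be told apart. The sample descriptions use 2 spellings of the animal names, by which the mice fall into a higher-numbered set (deficient 12 and 13, control 10 and 11) and a lower-numbered set (deficient 5 and 6, control 2 and 3). What parts these label sets is not given. They lie along the largest axis of variation, which held 60.5% of the variance, so the label set was kept in the model. Within each set, both deficient animals lay further toward the higher-numbered end of this axis than both controls.

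A Rab is loaded with GTP by an exchange factor, then recruits effectors that tether, move or fuse the membrane it sits on, and is switched off by a GTPase-activating protein. Prenyl anchors hold Rabs on membranes, and an escort protein and the GDP dissociation inhibitors shuttle them. In monocytes and macrophages, Rabs are known for the steps by which a phagosome passes from an early, Rab5-marked state to a late, Rab7-marked state that fuses with lysosomes. COMMD10 belongs to the COMMD proteins, which act with an endosomal complex that returns cargo to the cell surface.

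Total counts ran from 13327665 to 15759224 per animal. Counts of cre were 122, 94, 37 and 77 in deficient 5, 6, 12 and 13, against 0 in each control. Commd10 lay between 8.74 and 17.03 CPM (library-scaled counts) in deficient animals, against 24.5 to 29.8 CPM in control animals, and fell with a log2 fold change of -0.94 (edgeR quasi-likelihood test, adjusted p = 0.011). Lyz2, the gene that holds the Cre, lay between 315 and 7333 CPM in deficient animals, against 8869 to 16341 CPM in control animals. The 12 Ly6Chi monocyte markers were all present, with Itgam under more than 1 gene identifier. Of the 13 rows tested, 4 were called higher and 4 lower in deficient animals (edgeR, adjusted p under 0.05). They summed to 20896 to 29949 CPM in deficient animals, against 25045 to 31099 CPM in control animals. The summed level of 15 neutrophil markers was 696 to 948 CPM in deficient animals, against 425 to 643 CPM in control animals. Of these, Ly6g and Camp were not analysed here and Retnlg and Ngp were at 0 in some animals. Of the 9 tested, 5 were called higher in deficient animals (edgeR, adjusted p under 0.05) and 0 lower. The largest part of the sum is Csf3r, at 251 to 360 CPM in deficient animals, against 322 to 404 CPM in control animals. S100a8 was at 35.1 to 135 CPM in deficient animals, against 3.12 to 19.8 CPM in control animals. Lcn2 was at 87.9 to 210 CPM in deficient animals, against 16.6 to 47.7 CPM in control animals. The hepatocyte sum of 14 markers was 115 to 158 CPM in deficient animals, against 151 to 428 CPM in control animals. The 8 Kupffer cell markers summed to 29.6 to 93.0 CPM in deficient animals, against 50.5 to 193 CPM in control animals. Hpgd was the largest single part of that sum, at 13.8 to 77.1 CPM in deficient animals, against 38.6 to 172 CPM in control animals. Clec4f, the defining Kupffer cell marker, was at 0.503 to 0.969 CPM in deficient animals, against 0.751 to 2.58 CPM in control animals. Vsig4 was at 0.0657 to 0.791 CPM in deficient animals, against 0.751 to 1.97 CPM in control animals. Cd163, Cd5l and Marco also overlapped between the groups. Of the 7 tested Kupffer cell markers, 3 were called lower in deficient animals and 0 higher. The part of these other cell types in the results on Rabs was not tested. In such bulk samples, fewer cells of a type and less RNA per cell cannot be told apart.

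Of the 62 members, 56 passed the filter on low counts. Rab33a, Rab38, Rab4a, Rab26, Rab37 and Rab3b did not, with highest counts of 7 to 15 in any animal. Rab3b had 0 counts in deficient 6 and 12, which allows up to 3 counts in each. Of the 56, 43 are Rab GTPase genes.

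Because the results turn on 4 members that differed between the genotypes and on the member with the largest rise between the label sets, the sequences just upstream of their RefSeq transcription starts are shown (RefSeq, GRCm38.p6, 5′ to 3′). The stretches lie at chr6:85374635-85374884 on the minus strand for Rab11fip5, chr9:53706233-53706482 on the minus strand for Rab39, chr11:20201162-20201411 on the plus strand for Rab1 (Rab1a in RefSeq), chr1:185203918-185204116 on the plus strand for Rab3gap2, and chr19:10017944-10018192 on the plus strand for Rab3il1, at 1 of its 5 listed starts. Bases inside an annotated exon were left out, 51 for Rab3gap2 and 1 for Rab3il1. Capitals mark CACGTG or ACGTG on either strand. For Rab3il1, the window that begins at 10018001 overlaps the stretch shown and holds the same sites. Its windows that begin at 10001419, 10001475 and 10014797 hold neither motif.
Rab11fip5: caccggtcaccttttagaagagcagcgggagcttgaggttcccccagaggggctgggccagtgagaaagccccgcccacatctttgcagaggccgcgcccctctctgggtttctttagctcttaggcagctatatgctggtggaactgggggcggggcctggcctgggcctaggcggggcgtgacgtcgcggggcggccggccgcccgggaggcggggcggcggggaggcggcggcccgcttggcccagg
Rab39: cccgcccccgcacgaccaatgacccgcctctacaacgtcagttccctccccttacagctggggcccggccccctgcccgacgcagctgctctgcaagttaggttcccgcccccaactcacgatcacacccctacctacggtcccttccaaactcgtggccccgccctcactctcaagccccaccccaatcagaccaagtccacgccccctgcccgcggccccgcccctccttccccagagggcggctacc
Rab1: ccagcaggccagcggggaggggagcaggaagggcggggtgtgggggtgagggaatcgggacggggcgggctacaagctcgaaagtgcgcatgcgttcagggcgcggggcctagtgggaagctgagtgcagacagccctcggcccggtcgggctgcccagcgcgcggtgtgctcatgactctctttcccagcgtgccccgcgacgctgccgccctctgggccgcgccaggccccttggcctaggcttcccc
Rab3gap2: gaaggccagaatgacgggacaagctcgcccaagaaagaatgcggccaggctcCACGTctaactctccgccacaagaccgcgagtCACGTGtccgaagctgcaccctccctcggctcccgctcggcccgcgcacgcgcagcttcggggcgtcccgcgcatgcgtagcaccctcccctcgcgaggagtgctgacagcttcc
Rab3il1: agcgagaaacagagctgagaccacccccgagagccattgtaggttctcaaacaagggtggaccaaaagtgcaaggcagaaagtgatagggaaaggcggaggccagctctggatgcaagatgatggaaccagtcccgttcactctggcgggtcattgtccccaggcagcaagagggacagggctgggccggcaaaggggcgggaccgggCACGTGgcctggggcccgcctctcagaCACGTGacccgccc

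The 250 bases before each start were searched on both strands for 4 short motifs: ACGTG, the core of the element bound by the hypoxia-inducible factors; CACGTG, an E-box bound by TFEB, a regulator of lysosomal genes, and by many other factors; an interferon response element, read as GAAA, any 2 bases and GAAA again; and TGANTCA, an AP-1 site. Each CACGTG also holds ACGTG on both strands. RefSeq starts were matched for 47 of the 56 tested members, with 62 windows. ACGTG was in 13 of the 62 windows (21.0%), against 16.6% of 32851 windows over all genes. CACGTG was in 9 windows (14.5%), against 6.02% of all windows, and these belong to Rab10os, Rab20, Rab21, Rab23, Rab27a, Rab3gap2, Rab3il1 and Rab5a. By member, CACGTG was found for 8 of 47. The 2 windows of Rab3il1 with CACGTG overlap and hold the same sites, so these sites enter both window counts more than once. The interferon element was in 2 windows (3.23%), against 2.98% of all, and TGANTCA in 1 window (1.61%), against 6.75% of all. The windows of Rab11fip5, Rab39 and Rab1 hold none of the 4 motifs. A match describes these letters only.

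The most abundant members per length were Rabs of the early endosome (Rab5c), the late endosome (Rab7), lysosome-related organelles (Rab32) and the path from the endoplasmic reticulum (ER) to the Golgi (Rab1). Rab5c, a Rab5 paralog that acts in fusion of early endosomes, averaged 260 ± 12.99 CPM per kb of exon in deficient animals and 265 ± 12.4 in control animals (SD, n = 4 each), and ran from 244.6 to 281 over the animals. Rab7, which drives maturation of late endosomes and phagosomes, averaged 174 ± 13.1 CPM per kb in deficient animals and 162 ± 12.5 in control animals. Rab32, which acts on lysosome-related organelles and, in macrophages, on vacuoles that hold bacteria, averaged 154 ± 55.0 CPM per kb in deficient animals and 182 ± 48.7 in control animals. Its range over the animals, 95.8 to 230 CPM per kb, took in that of Rab7, 151 to 189, so the order of these neighbours did not hold beyond their spread. Rab1 and Rab1b, which both act in ER to Golgi transport, followed with means over all animals of 108 and 107 CPM per kb.

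Per animal, Rab5c had 555, 537, 597 and 590 CPM in deficient 5, 6, 12 and 13, against 557, 564, 588 and 617 CPM in control 2, 3, 10 and 11. The groups overlapped, and the higher-numbered set was above the lower-numbered set throughout. Rab7 had 451, 411, 493 and 465 CPM in deficient animals, against 397, 394, 449 and 454 CPM in control animals. Each deficient animal was above both controls of its own set, while the groups overlapped over all animals. Rab32 had 516, 406, 224 and 291 CPM in deficient animals, against 496, 539, 288 and 377 CPM in control animals, and its 4 lowest values were those of the higher-numbered set.

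Below these came Rab2a at 62.1 CPM per kb, then Rab8b of the exocytic path at 61.3, Rab10 at 58.0, Rab31 of the early endosome at 57.8, Rab20, which acts on phagosomes, at 56.2, and Rab35, which acts in fast recycling, at 49.4. At the low end, Rab34 stood at 0.383 and Rab23, known for its role in Hedgehog signalling, at 0.281 CPM per kb among the members tested. The GTPase genes summed to 4757 ± 121 CPM in deficient animals and 4666 ± 72.9 CPM in control animals (SD, n = 4 each), and the groups differed by less than their spread.

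**Figure D1:**
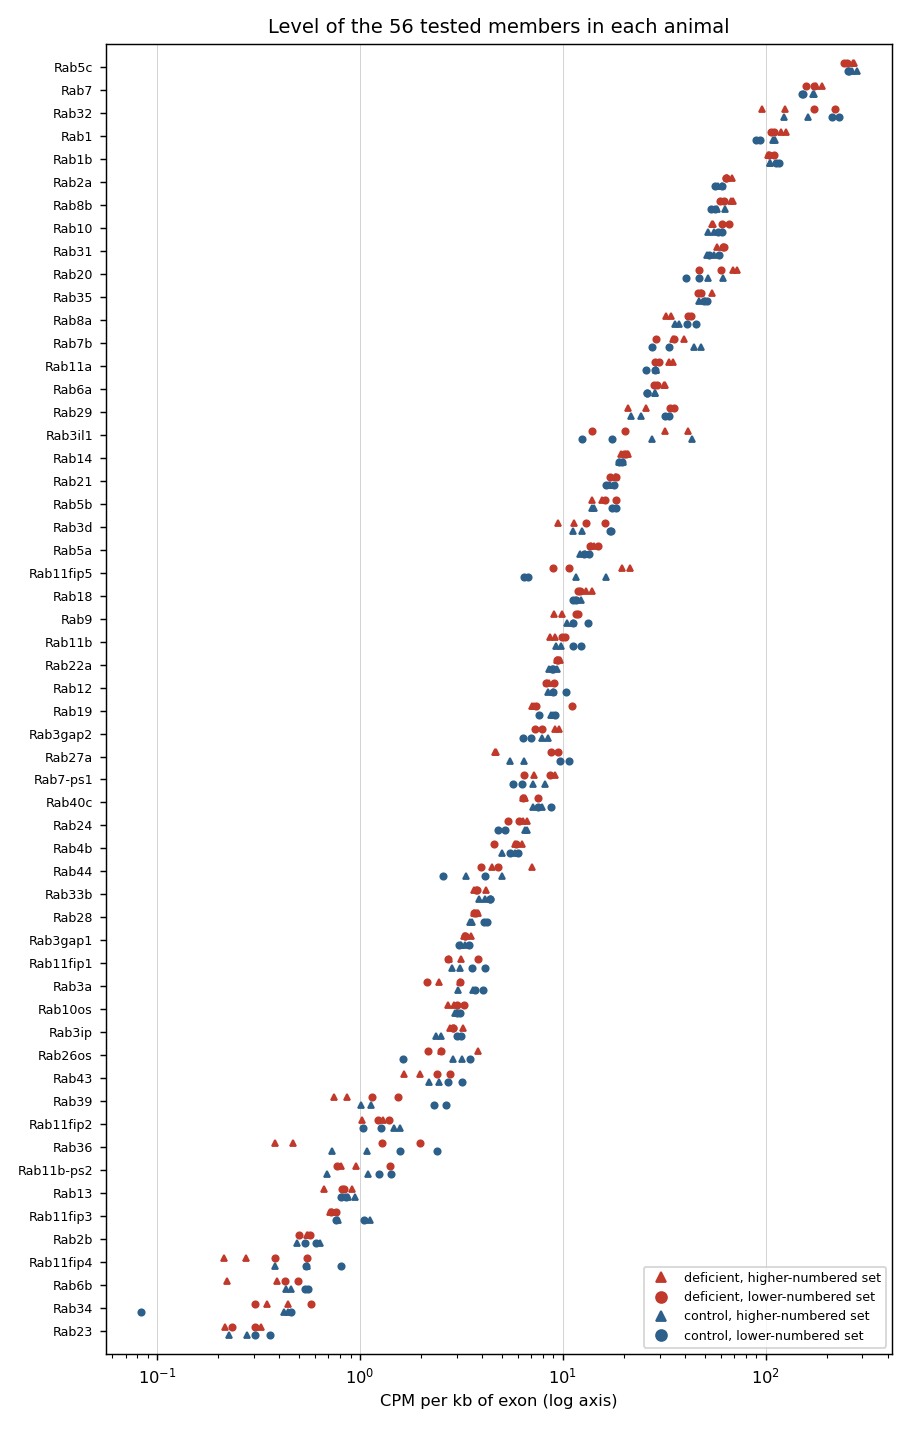
Level of each of the 56 tested members in CPM per kb of exon on a log axis, with 1 point per animal, deficient animals in red above control animals in blue, triangles for the higher-numbered and circles for the lower-numbered set. Rab5c is at the top at 262 CPM per kb and Rab23 at the bottom at 0.281, and the sets lie apart for Rab32 and Rab3il1.

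Between the genotypes, 4 of the 56 tested members changed, 3 higher and 1 lower in deficient animals, which is 7.14% of the members, against 13.9% of all 12178 genes tested (6.59% higher and 7.35% lower). Rab11fip5, Rab1 and Rab3gap2 rose and Rab39 fell. Of the 43 GTPase genes, 2 changed, Rab1 and Rab39. The share of members called lay below that of the table. At an unadjusted p under 0.05, 20 of the 56 members passed, a share somewhat above the 30.9% of all genes. The median log2 fold change of the members was -0.02, against -0.000278 over all genes, with a range of -0.72 to 0.56. These counts need the label set in the model: without it 0 members and 0.0% of all genes were called, and 3 members (Rab2a, Rab3a and Rab40c) passed an unadjusted p under 0.05, against 12.5% of all genes. DESeq2 called 5 members, against 15.5% of genes, dropping Rab3gap2 and adding Rab20 and Rab11fip4, and limma voom called the same 4 as edgeR, against 13.9% of genes. With any 1 animal left out, 1 to 2 members were called.

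Rab11fip5, an adaptor that binds Rab11 on recycling endosomes (ENSMUSG00000051343, GRCm38 chromosome 6, 85334962 to 85374634, minus strand), had 54.7, 65.5, 131 and 120 CPM in deficient 5, 6, 12 and 13, against 39.6, 41.4, 99.9 and 71.1 CPM in control 2, 3, 10 and 11. Within each set both deficient animals were above both controls, but over all animals the groups overlapped, since the controls of the higher-numbered set were above the deficient animals of the lower-numbered set. It rose with a log2 fold change of 0.56 ± 0.10 (SE; edgeR quasi-likelihood test, adjusted p = 0.010), 0.56 in the higher-numbered and 0.57 in the lower-numbered set. The call was kept when any 1 animal was left out.

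Rab39, a late endosomal Rab that in human macrophages binds caspase-1 (ENSMUSG00000055069, chromosome 9, 53684110 to 53706232, minus strand), had 3.43, 4.60, 2.22 and 2.56 CPM in deficient animals, against 7.87, 6.85, 3.00 and 3.37 CPM in control animals. Both deficient animals were below both controls within each set, and the 4 animals of the lower-numbered set were above those of the higher-numbered set. It fell with a log2 fold change of -0.68 ± 0.17 (edgeR, adjusted p = 0.031), -0.41 in the higher-numbered and -0.88 in the lower-numbered set. It is among the less abundant members, and the call was lost on leaving out any of deficient 5, 6 and 12 or control 2, 3 and 11, with adjusted p from 0.031 to 0.087 over the animals left out.

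Rab1, which carries vesicles between the ER and the Golgi (ENSMUSG00000020149, chromosome 11, 20201432 to 20226856, plus strand), had 406, 418, 481 and 453 CPM in deficient animals, against 357, 342, 421 and 413 CPM in control animals. The deficient animals were above the controls within each set. It rose with a log2 fold change of 0.20 ± 0.05 (edgeR, adjusted p = 0.037), 0.16 in the higher-numbered and 0.24 in the lower-numbered set. Leaving out any 1 animal took the adjusted p to between 0.055 and 0.104.

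Rab3gap2, the non-catalytic subunit of the complex that switches off Rab3 and, as an exchange factor, switches on Rab18 (ENSMUSG00000039318, chromosome 1, 185204117 to 185286759, plus strand), had 85.4, 78.9, 103 and 98.6 CPM in deficient animals, against 75.0, 68.5, 85.1 and 91.2 CPM in control animals. Again the deficient animals were above the controls within each set and the groups overlapped over all animals. It rose with a log2 fold change of 0.20 ± 0.06 (edgeR, adjusted p = 0.049), 0.20 in the higher-numbered and 0.19 in the lower-numbered set. The call was lost on leaving out any 1 animal, and limma voom was the only alternative fit that kept it. Its exons overlap those of Iars2 on the other strand over 2034 bases. Whether the counting used strand and how it treated shared reads is not given. Reads of Iars2 may be among these counts, or reads of Rab3gap2 may be missing from them. Its catalytic partner Rab3gap1 had a log2 fold change of 0.05 ± 0.06.

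**Figure D2:**
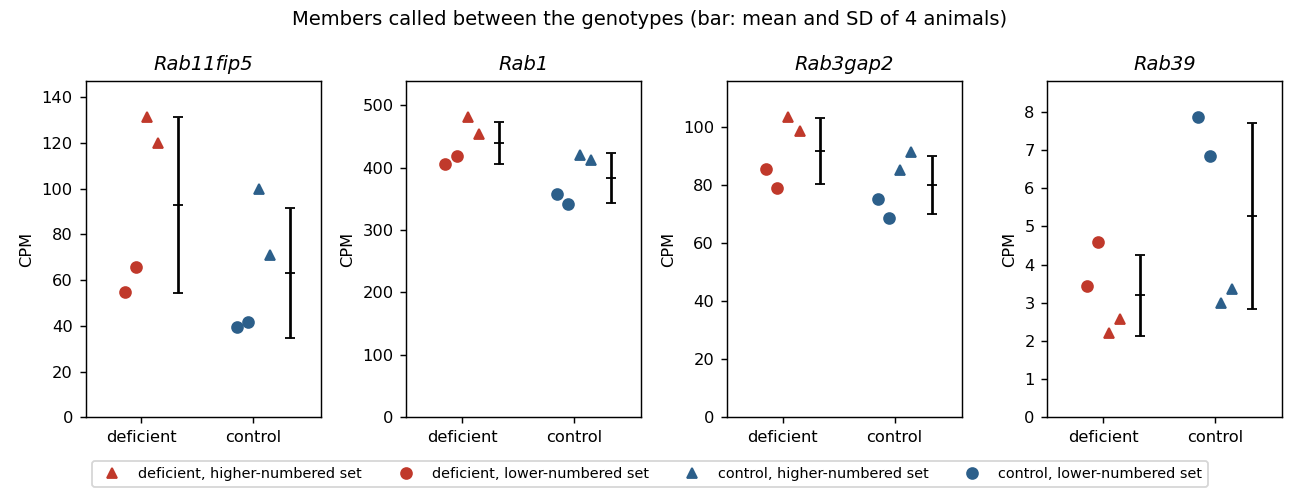
CPM of the 4 members called between the genotypes, with deficient animals in red left of control animals in blue, triangles for the higher-numbered and circles for the lower-numbered set, and bars for the mean and SD of 4 animals. Within each set the deficient animals lie above the controls for Rab11fip5, Rab1 and Rab3gap2 and below them for Rab39.

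Rab20, whose RNA rises in hypoxia in other cells, just missed the threshold, with 83.9, 65.5, 101 and 96.3 CPM in deficient animals, against 65.2, 56.6, 72.3 and 85.8 CPM in control animals (log2 fold change 0.31 ± 0.09, edgeR adjusted p = 0.053). Rab11fip4, an adaptor of the same family as Rab11fip5, had 2.83, 4.10, 1.59 and 2.04 CPM in deficient animals, against 6.04, 4.06, 2.85 and 4.09 CPM in control animals (log2 fold change -0.72 ± 0.22, edgeR adjusted p = 0.060). These 2 were singled out after their values were seen.

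By role, 1 of 10 members of ER and Golgi traffic was called (Rab1), 0 of 7 of the early endosome and phagosome, 0 of 10 of recycling and exocytic traffic, 1 of 7 of the late endosome and lysosome (Rab39), 0 of 5 of regulated secretion and lysosome-related organelles, 0 of 4 other GTPases, 2 of 9 partner proteins and 0 of 4 antisense transcripts and pseudogenes. In the roles with 0 calls by edgeR, unadjusted p fell under 0.05 for 3 early endosome members, 3 recycling members, 3 secretion members, 2 other GTPases and 0 antisense transcripts or pseudogenes. DESeq2 called 1 of them, Rab20 of the early endosome. These shares are to be read against 13.9% of all genes called and 30.9% at an unadjusted p under 0.05, and no role was tested against the table. Fold changes ran from -0.03 to 0.31 on the log2 scale in the early endosome group, with 6 of 7 above 0. They ran from -0.41 to 0.42 in the secretion group, with 4 of 5 below 0. All 4 other GTPases were below 0. Above 0 were 4 of 10 in ER and Golgi traffic, 5 of 10 in recycling and 4 of 7 in the late endosome. So were 5 of 9 partners, 1 of 4 antisense transcripts and pseudogenes, and 26 of all 56 members. Without the label set, 5 of 7 of the early endosome group were above 0.

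Over all animals, 2 members did not overlap between the genotypes, Rab2a and Rab5a, against 7.02% of all genes tested. Rab2a, which acts at the ER to Golgi boundary, had 136, 136, 146 and 138 CPM in deficient animals, against 120, 130, 130 and 124 CPM in control animals. Rab5a, the Rab5 paralog whose protein is best known for early endosome fusion, had 78.7, 71.7, 72.4 and 75.2 CPM in deficient animals, against 71.3, 67.4, 68.0 and 64.5 CPM in control animals. Neither passed the test, at log2 fold changes of 0.14 ± 0.05 for each. Within both sets and in the same direction, 18 of the 56 members did not overlap (12 higher and 6 lower), a share somewhat above the 27.3% of all genes.

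**Figure D3:**
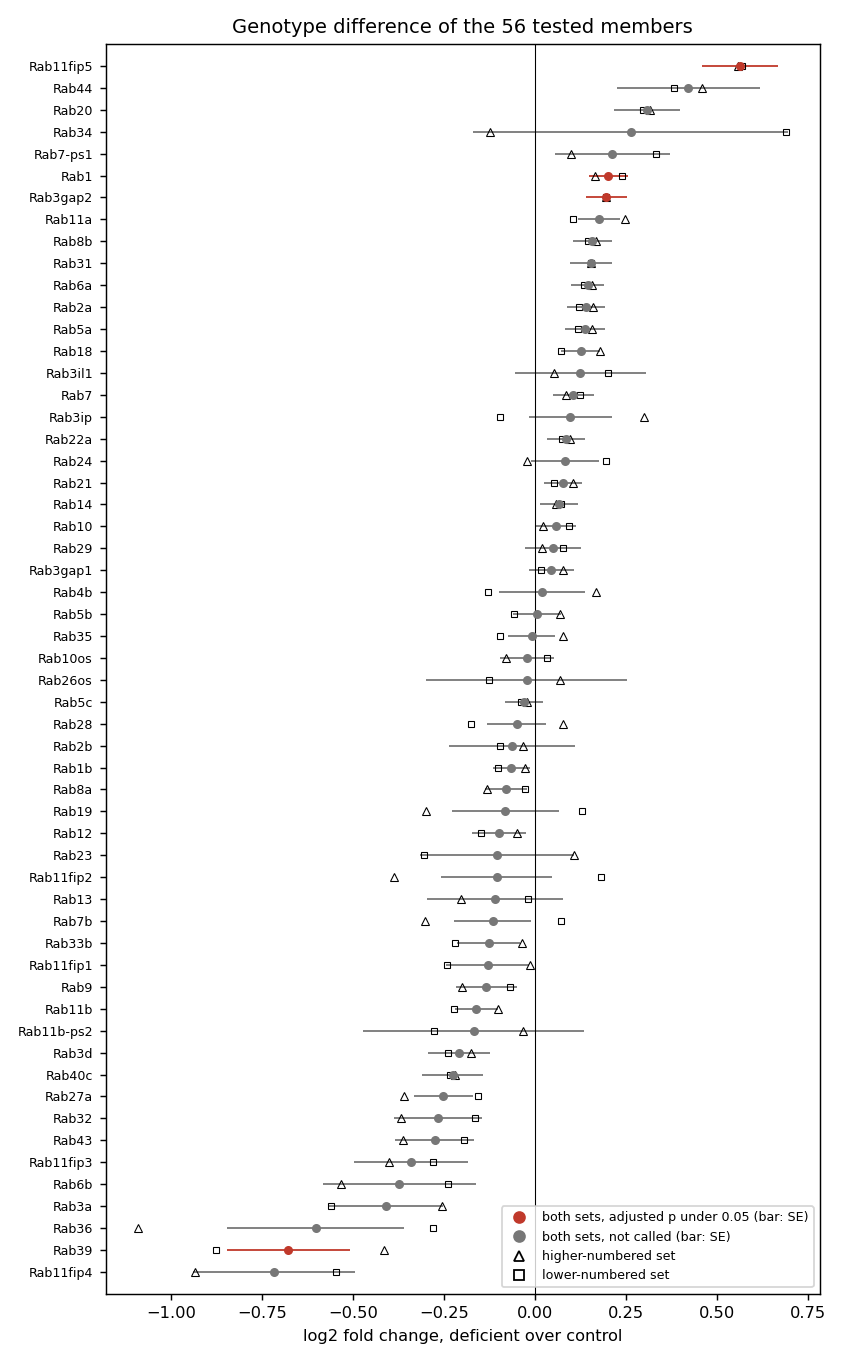
Log2 fold change of deficient over control for each of the 56 tested members, with the SE as a bar, called members in red, and the values within the higher-numbered (triangles) and lower-numbered (squares) set. Most members lie near 0, from -0.72 for Rab11fip4 to 0.56 for Rab11fip5, and the within-set values of Rab11fip5 coincide at 0.56 and 0.57.

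No genotype difference of a member was called as differing between the label sets: the interaction term called 0 of 56 members by edgeR, against 0.0411% of all genes, and 0 by DESeq2, against 0.534% of all genes. At an unadjusted p under 0.05 edgeR and DESeq2 both had 0 members, against 6.71% and 4.07% of all genes.

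Some Rabs exist as close paralogs that share a step, and their balance was compared over 9 families as the share, in the summed CPM per kb, of the paralog with the highest mean over all animals. Rab1 and Rab1b are near equal, and Rab1b had the larger share in deficient 5 and in control 2 and 3. Rab1 made up 49.2%, 51.5%, 55.3% and 53.5% of Rab1 and Rab1b in deficient 5, 6, 12 and 13, against 45.4%, 43.5%, 51.4% and 50.8% in control 2, 3, 10 and 11. The means were 52.4% ± 2.65 in deficient animals and 47.8% ± 3.92 in control animals (SD, n = 4 each), a difference of 4.60 percentage points. Within each set both deficient animals were above both controls, and over all animals the groups overlapped. Rab11a, the widely expressed recycling Rab, made up 76.9% ± 3.00 of Rab11a and Rab11b in deficient animals and 72.5% ± 3.12 in control animals. Rab8b made up 63.1% ± 4.67 of Rab8a and Rab8b in deficient animals and 59.3% ± 3.69 in control animals. Rab6a, a Golgi Rab, made up 98.7% ± 0.448 of Rab6a and Rab6b in deficient animals and 98.2% ± 0.305 in control animals. For these 4 families the exact permutation test within sets, two-sided, gave 0.0556, the smallest p it can give, and 0.125 after adjustment over the 9 families. Over all splits of the animals, where the smallest p is 0.0286, adjusted values from the exact permutation test ran from 0.343 to 0.514, so no share passed.

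**Figure D4:**
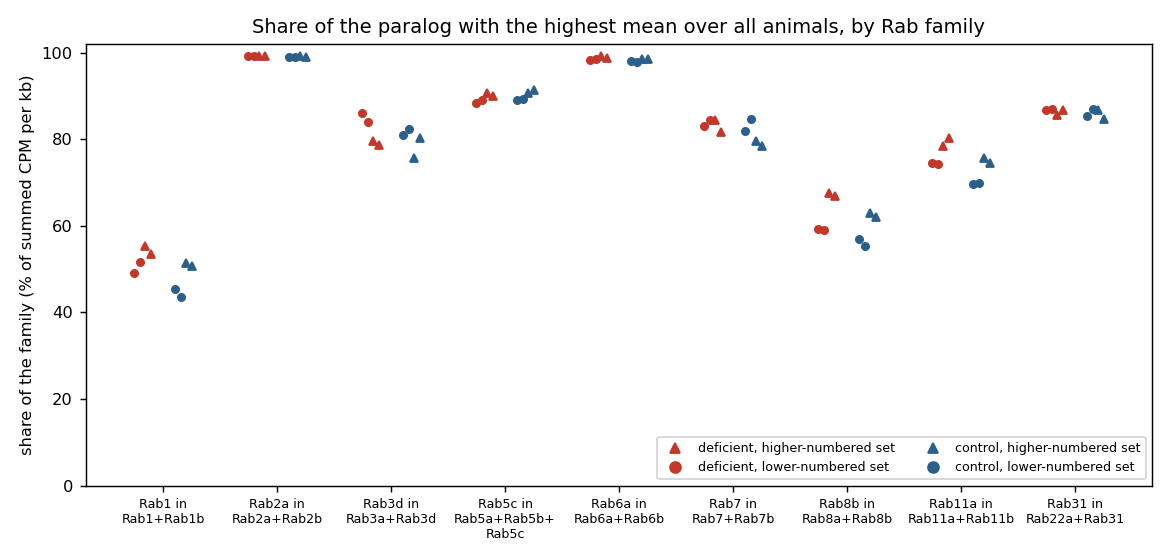
Share of the paralog with the highest mean over all animals in its family, in percent of summed CPM per kb, for 9 families, with 1 point per animal, deficient animals in red left of control animals in blue, triangles for the higher-numbered and circles for the lower-numbered set. The shares of Rab1 spread from 43.5% to 55.3%, and those of Rab2a and Rab6a sit close to 100%.

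Between the label sets, 22 of 56 tested members changed, 9 higher and 13 lower in the higher-numbered set. This is 39.3% of the members, against 36.9% of all genes (18.6% higher and 18.3% lower). The count of members is near the background of the table. Among the late endosome and lysosome group 6 of 7 changed, Rab7, Rab7b and Rab24 higher and Rab9, Rab29 and Rab39 lower. In regulated secretion 3 of 5 changed, all lower: Rab27a, Rab32 and Rab3d. Rab1 and Rab6a rose and Rab43 fell among 10 of ER and Golgi traffic, Rab20 rose and Rab5b fell among 7 of the early endosome, Rab8a, Rab10 and Rab11b fell among 10 of recycling, and Rab36 fell among 4 other GTPases. Exons of Rab24 overlap those of Prelid1 on the other strand over 1258 of 2015 bases. On the other strand, those of Rab20 also overlap E230013L22Rik over 356 of 1392, and those of Rab6a Mrpl48 over 708 of 3728. Those of Rab43 overlap Gm45140 on the same strand over 4164 of 5526. Reads of these neighbours may be among the counts of these members, or their own reads may be missing from them. Among the partners, Rab3il1, Rab11fip5 and Rab3gap2 rose and Rab11fip4 fell. The sets also differed in the summed level of 10 sinusoidal endothelial markers, 953 to 1868 CPM in the higher-numbered set against 487 to 810 CPM in the lower-numbered set, and of the Kupffer cell markers, 29.6 to 75.9 CPM in the higher-numbered set against 90.1 to 193 CPM in the lower-numbered set. The endothelial sum is mostly Fcgr2b, which monocytes also express, at 763 to 1657 CPM in the higher-numbered set against 444 to 728 CPM in the lower-numbered set, while Stab2 was at 5.78 to 26.0 CPM in the higher-numbered set against 0.857 to 2.73 CPM in the lower-numbered set. Hpgd was the largest single part of the Kupffer cell sum, at 13.8 to 53.3 CPM in the higher-numbered set against 73.1 to 172 CPM in the lower-numbered set. Clec4f, Cd163, Cd5l and Marco overlapped between the sets. The 8 B and plasma cell markers summed to 72.3 to 111 CPM in the higher-numbered set against 131 to 226 CPM in the lower-numbered set, and the 11 T and NK cell markers to 10.108 to 17.4 CPM in the higher-numbered set against 5.01 to 9.65 CPM in the lower-numbered set. The part of these cell types in the difference was not tested.

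Rab3il1, an exchange factor for Rab3 and Rab8 (ENSMUSG00000024663, chromosome 19, 10001669 to 10038380, plus strand), had 291, 223, 304 and 192 CPM in deficient 12 and 13 and control 10 and 11, against 98.2, 143, 123 and 86.9 CPM in deficient 5 and 6 and control 2 and 3. Every animal of the higher-numbered set was above every animal of the lower-numbered set, and it rose with a log2 fold change of 1.17 ± 0.18 (edgeR, adjusted p = 0.0013). Between the genotypes it differed by 0.12 ± 0.18 on the log2 scale. Rab11fip5 averaged 106 ± 26.4 CPM in the higher-numbered set and 50.3 ± 12.2 CPM in the lower-numbered set (SD, n = 4 each), and rose with a log2 fold change of 1.07 ± 0.10 (edgeR, adjusted p = 1.9e-04). Its per-animal values above show that the sets did not overlap. Rab7b, which in macrophages takes part in the traffic of Toll-like receptors, had 162, 183, 204 and 221 CPM in the higher-numbered set, against 163, 134, 155 and 127 CPM in the lower-numbered set. The sets overlapped at deficient 12 and 5, and it rose with a log2 fold change of 0.40 ± 0.11 (edgeR, adjusted p = 0.016).

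Rab36, which binds RILP, an effector it shares with Rab7 and Rab34 (ENSMUSG00000020175, chromosome 10, 75037058 to 75054748, plus strand), had 2.35, 2.89, 4.51 and 6.68 CPM in deficient 12 and 13 and control 10 and 11, against 12.2, 7.98, 9.70 and 14.8 CPM in deficient 5 and 6 and control 2 and 3. The sets did not overlap, and it fell with a log2 fold change of -1.496 ± 0.24 (edgeR, adjusted p = 0.0017). Rab39 averaged 2.79 ± 0.506 CPM in the higher-numbered set and 5.69 ± 2.03 CPM in the lower-numbered set, and fell with a log2 fold change of -0.99 ± 0.17 (edgeR, adjusted p = 0.0020). Rab27a, which docks lysosome-related organelles and exosome-bearing compartments at the cell surface, had 17.9, 18.2, 21.3 and 25.1 CPM in the higher-numbered set, against 34.1, 36.9, 37.5 and 41.5 CPM in the lower-numbered set. The sets stood well apart, and it fell with a log2 fold change of -0.87 ± 0.08 (edgeR, adjusted p = 1.7e-04). Rab32, Rab29, which recruits LRRK2 to membranes, and Rab3d, a Rab of secretory granules, fell with log2 fold changes of -0.74, -0.53 and -0.51. Of the 56 members, 15 did not overlap between the sets (4 higher and 11 lower), against 24.3% of all genes.

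**Figure D5:**
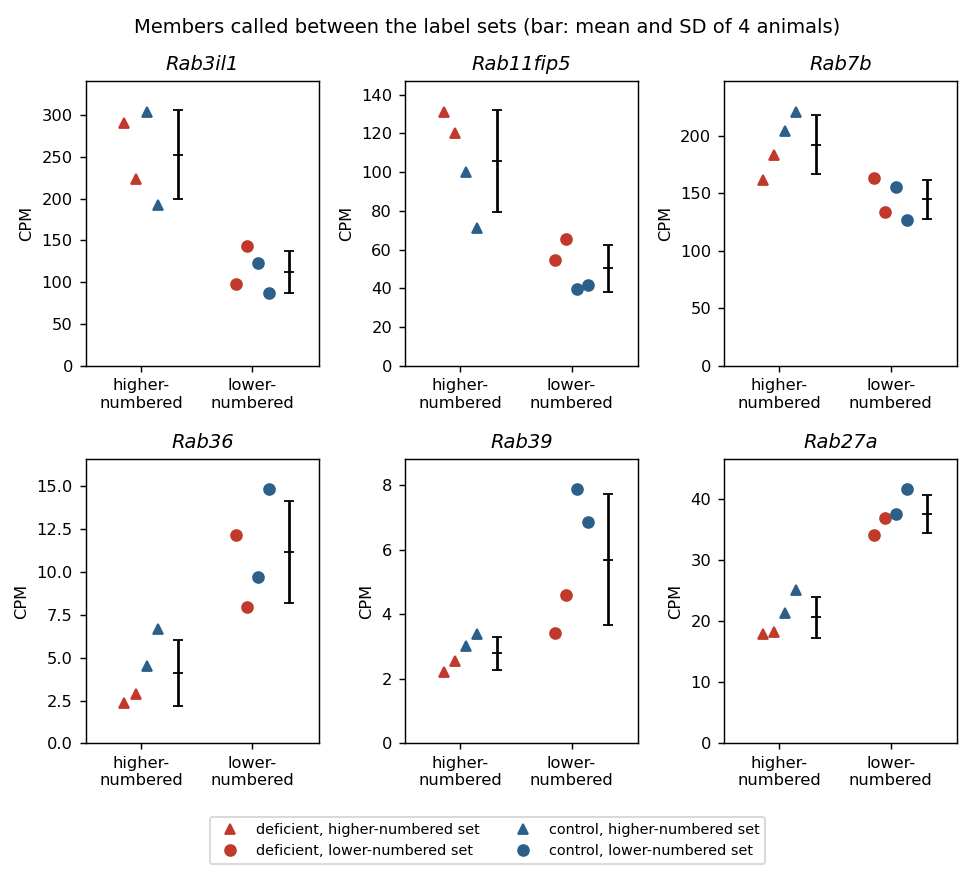
CPM of the 6 members with the largest called changes in each direction between the label sets, with the higher-numbered set left of the lower-numbered set, deficient animals in red, control animals in blue, and bars for the mean and SD of 4 animals. Rab3il1, Rab11fip5 and Rab7b are higher and Rab36, Rab39 and Rab27a lower in the higher-numbered set, and the sets overlap for Rab7b alone among these 6.

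The Rab machinery outside the family was read from 4 lists. Of 10 genes for prenylation, escort and GDI, 1 rose in deficient animals: Rabggtb, a subunit of the enzyme that attaches prenyl groups to Rabs, with 27.9, 30.8, 43.8 and 44.7 CPM in deficient animals, against 27.3, 25.5, 36.7 and 34.5 CPM in control animals (log2 fold change 0.23 ± 0.07, edgeR adjusted p = 0.048). That list gave 2 calls without deficient 5 and 0 without any other animal. Of 36 tested exchange factors, 2 rose and 1 fell (8.33%). Ric1, part of the exchange factor for Rab6, had 108, 115, 262 and 206 CPM in deficient animals, against 64.2, 63.9, 143 and 108 CPM in control animals. It rose with a log2 fold change of 0.85 ± 0.10 (edgeR, adjusted p = 0.0022), 0.90 in the higher-numbered and 0.80 in the lower-numbered set. Dennd4c, an exchange factor for Rab10, rose with a log2 fold change of 0.67 ± 0.11, and Hps1, part of the exchange factor for Rab32 and Rab38, fell with one of -0.44 ± 0.08 (edgeR, adjusted p = 0.0076 and 0.012).

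Of 38 GTPase-activating proteins, 2 rose and 4 fell (15.8%). Tbc1d24 and Tbc1d15, which acts on Rab7, rose with log2 fold changes of 0.27 ± 0.07 and 0.23 ± 0.06, while Rabgap1l and Tbc1d10c fell with -0.59 ± 0.12 and -0.63 ± 0.13. Of 41 tested effectors, 5 rose and 6 fell (26.8%, against 13.9% of all genes). Eea1, the tether of early endosomes that binds Rab5, had 60.3, 68.2, 112 and 109 CPM in deficient animals, against 52.4, 46.6, 76.4 and 76.2 CPM in control animals. It rose with a log2 fold change of 0.46 ± 0.07 (edgeR, adjusted p = 0.0047), 0.53 in the higher-numbered and 0.38 in the lower-numbered set. Myo5a, a motor recruited by Rab27a and Rab11, rose with a log2 fold change of 0.37 ± 0.06. Exoc6, an exocyst subunit that binds Rab11, and Lrrk1, a kinase that phosphorylates Rab7, fell with -0.29 ± 0.05 and -0.34 ± 0.08. The effectors called numbered 3 to 6 without any of deficient 6, 12 and 13 or control 2, 3 and 11, and the GTPase-activating proteins called numbered 1 to 3 without any of these same animals. The median log2 fold change of the effectors was 0.0039, against -0.000278 over all genes. Rab5c and Rab5b, the partners of Eea1 beside Rab5a, had log2 fold changes of -0.03 ± 0.05 and 0.01 ± 0.07.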

How the data were processed

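The deposited table gives the authors' raw counts for each gene and animal. Beside them stands a normalised signal the authors deposited, whose values equal the counts over a factor of each library; it was not used for tests. The submitters' processing notes name GRCm38, HTSeq 0.12.4, STAR 2.7.3a, DESeq2 1.26.0 and cutadapt, with no roles given. Strandedness is not given in the sources used here. The table holds 15336 genes and a cre row, and 0 columns of samples were left unmapped. Each library is numbered as a separate animal.

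Genes were kept by filterByExpr (minimum count 10, minimum total 15), which left 12178 and removed 3158. Libraries were scaled by TMM (factors 0.944 to 1.03), and edgeR 4.0.16 in R 4.3.3 fitted genotype and label set, two-sided quasi-likelihood F-test, with Benjamini-Hochberg adjustment over all genes and calls at an adjusted p under 0.05. SE is the log2 fold change over the square root of F. Levels per length use exon lengths of GENCODE M21, which holds 15324 of the gene identifiers. Alternatives were RLE and upper-quartile scaling, no filter, at least 5 CPM in 4 libraries, DESeq2 1.42.0, limma voom 3.58.1, no label set, each set alone, and leaving out each animal. A count of 0 was allowed up to 3 counts, which covers counting error only, since the reads carry no molecular identifiers.

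The members and gene lists, and the model with the label set, were chosen with earlier results of these data known. Values in every animal were given for members called between the genotypes, the 4 most abundant members, and the 3 largest changes in each direction between label sets; from each list, the 2 called genes per direction with the smallest p. The code was tested on simulated data with 12016 genes. There the genotype comparison with label set found 88.3% of 2-fold and 99.0% of 4-fold changes and made 14 false calls, 7.22% of its calls. Smaller changes were not simulated. Every genotype difference of a tested member was under 2-fold, so these shares found do not apply to them.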

Additional observations from a re-analysis of the deposited data

Results flagged for a closer look

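Of 112 groups (56 members, each in 4 deficient and 4 control animals), 8 had an animal far from the other 3 of its group, the ratio of its gap to the whole range being above Dixon's critical value for 4 animals. Chance gives about 5% of groups and 7.14% were found.

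In deficient animals, Rab19 was high in deficient 6, at 17.5 CPM against 11.2 to 11.6 CPM in the others (ratio 0.932), and Rab40c was high in deficient 5, at 23.4 CPM against 19.7 to 20.1 CPM (ratio 0.876). Rab31 was low in deficient 12, at 220 CPM against 235 to 237 CPM (ratio 0.896), and Rab21 was low in deficient 5, at 86.7 CPM against 91.7 to 92.3 CPM (ratio 0.894). Rab1b was high in deficient 5, at 251 CPM against 232 to 235 CPM (ratio 0.838), and Rab3gap1 was high in deficient 13, at 41.5 CPM against 38.2 to 38.7 CPM (ratio 0.853). In control animals, Rab34 was low in control 3, with 3 counts against 14 to 16 (ratio 0.909), and Rab11a was low in control 2, at 77.0 CPM against 85.2 to 86.6 CPM (ratio 0.849). None of these 8 is a member called between the genotypes.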

How the results depend on the processing

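No paired analysis was possible because no animal number occurs in both genotypes. The alternatives were followed for the members and list genes chosen by the naming rules above, and none of these differences changed its direction. Other members near 0 did. Rab5b had a genotype log2 fold change of 0.0051 in the main fit and -0.00074 without the label set. The 4 members called between the genotypes became 3 with RLE scaling and with no filter, 2 with upper-quartile scaling and with at least 5 CPM in 4 libraries, 5 with DESeq2, 4 with limma voom, and 0 without the label set and in each set alone. Leaving out 1 animal gave 1 to 2. Rab3gap2 kept its call with limma voom alone. With at least 5 CPM in 4 libraries Rab39 was filtered out and so not tested, since only control 2 and 3 reached that level. Rab11fip5 kept its call in each run that held both sets and the label set term. Over the table, 1697 genes became 0 without the label set, 646 with the higher-numbered set alone, 46 with the lower-numbered set alone, and 697 to 1685 with 1 animal left out. Upper-quartile scaling shifted the table to 641 higher and 1035 lower calls (main 802 and 895). The 22 members called between the label sets ranged from 16 to 23, with 16 to 20 when 1 animal was left out, and 3550 to 4349 genes over the table.

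The 1 called gene of prenylation, escort and GDI became 0 with upper-quartile scaling, no filter, DESeq2, no label set and each set alone, and 0 to 2 with 1 animal left out. The exchange factors gave 5 with DESeq2, 0 without the label set, and 3 to 4 with 1 animal left out. The GTPase-activating proteins gave 0 without the label set and in each set alone, and 1 to 6 with 1 animal left out. The effectors gave 0 without the label set and in the lower-numbered set alone, 2 in the higher-numbered set alone, and 3 to 9 with 1 animal left out. With fewer animals the tests have less power; the other causes were not tested. Where 1 animal was left out, the lone animal of its genotype and set was assumed to vary like the others. The 6 members that were not tested had at most 15 counts in any animal. Whether depth or low expression lies behind these counts was not tested.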
